A study of Mus musculus with 22 samples.

Results

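The genes described here are 36 genes of fatty acid import, activation, beta-oxidation and electron transfer, taken by name from a list of pathway genes. The rule used no measured value, but the list was drawn up with earlier results of these data known. All 36 were found among the 47729 genes counted per library, and all 36 passed the filter on low counts in every comparison. Liver poly(A) RNA of male C57BL/6 mice was sequenced in 22 libraries: Slc10a1-/- (KO) and wild-type (WT) livers at 4 weeks (3 KO and 3 WT), 8 weeks (6 KO and 4 WT) and 20 months (3 KO and 3 WT). Slc10a1 encodes the sodium taurocholate cotransporting polypeptide, which takes conjugated bile acids from blood into hepatocytes. The labels give no treatment, feeding state or time of day, and do not say which mice were littermates, so p-values measure the spread between these libraries.

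Fatty acids enter the hepatocyte, are joined to coenzyme A and cross the inner mitochondrial membrane as carnitine esters. In the mitochondrion an acyl-CoA dehydrogenase, a hydratase, a second dehydrogenase and a thiolase shorten the chain in turn, and the first of these steps passes its electrons to the electron transfer flavoprotein. Peroxisomes shorten very long and branched chains and the side chain of bile acid precursors by their own enzymes. In liver many of these genes are targets of the nuclear receptor PPAR-alpha and rise in fasting and in suckling pups.

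Libraries of 4-week livers held between 5496425 and 6956124 counts in genes. Those of 8-week livers held between 18950112 and 26066897 counts, and those of 20-month livers between 18032355 and 26789350. The 4-week libraries were read in pairs and the others in single reads, so age and read type cannot be told apart. Levels below are CPM, the counts of a gene scaled to a common library size, and CPM per kilobase of exon where genes are set against each other. Slc10a1 had 108, 253 and 143 CPM in KO livers at 4 weeks, against 591, 701 and 677 CPM in WT livers. It had 49.4 to 93.8 CPM in KO livers at 8 weeks, against 435 to 470 CPM in WT livers. At 20 months it had 103, 92.3 and 92.9 CPM in KO livers, against 154, 370 and 288 CPM in WT livers, so the KO libraries lay below the WT libraries at every age. Which part of the gene is deleted is not given in the sources used here.

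Several libraries stood apart from the rest of their group. KO library 1 at 4 weeks had 27072 CPM of albumin (Alb), against 142109 and 108294 CPM in the other KO libraries and 100406 to 118600 CPM in WT libraries. WT libraries 1 and 2 at 20 months had 47489 and 22338 CPM of the acute phase gene Saa1, against 213 CPM in WT library 3 and 160 to 259 CPM in KO libraries. KO library 6 at 8 weeks held 178 CPM of muscle markers in sum, including 52.1 CPM of the skeletal actin Acta1, against at most 0.343 CPM of the markers in the WT libraries. KO library 1 at 20 months had 14.72% of its reads outside genes, against 7.0% to 8.52% in the other libraries of that age, and 11.1 CPM of the clock gene Dbp, against 78.9 and 72.2 CPM in the other KO libraries. WT library 1 of that age was low in Dbp as well, with 9.02 CPM against 51.0 and 64.3 CPM in the other WT libraries. KO libraries 1 and 2 at 8 weeks were high in the clock gene Arntl, with values given below. Markers of hepatocytes summed to at least 61915 CPM in every library. Counts of members that passed, medians or score differences that rest on these libraries are given with and without single libraries.

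The share of each gene's RNA in WT livers spanned a wide range. Per kilobase, the highest WT mean at 4 weeks was 880 CPM per kb for Ehhadh, the peroxisomal bifunctional enzyme. Acaa2, the mitochondrial thiolase, followed with 718, Slc27a2, a very long chain acyl-CoA synthetase and fatty acid transporter, with 653, and the peroxisomal thiolase Acaa1b with 515 CPM per kb. At 8 weeks Slc27a2 had 403, Acaa2 382 and Etfa, the alpha subunit of the electron transfer flavoprotein, 146 CPM per kb, while Ehhadh had 67.1. At 20 months the highest WT means were 356 CPM per kb for Acaa2, 296 for Etfa and 272 for Slc27a2. The acyl-CoA thioesterases Acot2, Acot3 and Acot4 held the lowest 3 places in WT livers at every age, with 9.97 CPM per kb or less at 4 weeks.

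Some members share sequence or exons with other genes, which limits their counts. Acaa1b shared 30.5% of its 50-base words with its neighbour Acaa1a, Acot2 shared 24.5% with Acot1, Hadhb 18.1% with Gm13910 and Acot3 11% with Gm49366. Of the exon bases of Etfb, 58.2% overlapped other genes on the same strand, Gm45233 and Mir7051, and 42.9% of those of Acadvl overlapped Dvl2 on the opposite strand. The strand setting of the counting is not given in the sources used here.

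Promoter windows of RefSeq on GRCm38.p6, from 250 bases before to 50 after a start site, were at hand for 32 of the 36 members (36 windows). A set of 5 windows is printed, because 3 come from related pairs of genes and 2 held a motif match. Hadha and Hadhb, the subunits of the mitochondrial trifunctional protein, are transcribed away from each other and their windows overlap by 228 bases, so the Hadhb window (chr5:30155003-30155302, plus strand) holds most of both. Acaa1b (chr9:119157044-119157343, minus strand) is shown beside Acaa1a (chr9:119341044-119341343, plus strand), the other peroxisomal thiolase gene, 182582 bases away. Acot4 (chr12:84038129-84038428, plus strand) and Acox2 (chr14:8258970-8259269, minus strand) held the only member matches to the letters GGNCANAGGNCA, printed in capitals.
Hadhb: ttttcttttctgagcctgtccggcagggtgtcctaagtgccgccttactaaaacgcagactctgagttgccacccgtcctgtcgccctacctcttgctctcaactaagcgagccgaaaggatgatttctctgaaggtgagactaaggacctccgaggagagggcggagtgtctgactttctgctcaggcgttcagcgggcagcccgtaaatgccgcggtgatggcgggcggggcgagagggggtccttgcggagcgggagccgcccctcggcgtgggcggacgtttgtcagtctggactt
Acaa1b: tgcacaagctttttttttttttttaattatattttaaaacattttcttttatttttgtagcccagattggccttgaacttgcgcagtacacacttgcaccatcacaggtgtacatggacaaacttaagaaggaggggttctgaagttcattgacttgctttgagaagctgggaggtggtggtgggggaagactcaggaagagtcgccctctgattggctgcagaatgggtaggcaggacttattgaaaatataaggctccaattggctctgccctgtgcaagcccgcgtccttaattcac
Acaa1a: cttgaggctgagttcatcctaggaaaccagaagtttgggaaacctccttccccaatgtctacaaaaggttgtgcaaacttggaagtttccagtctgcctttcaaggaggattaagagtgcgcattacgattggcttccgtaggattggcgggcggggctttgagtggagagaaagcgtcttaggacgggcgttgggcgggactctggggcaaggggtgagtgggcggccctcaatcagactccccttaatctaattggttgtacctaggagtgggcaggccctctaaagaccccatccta
Acot4: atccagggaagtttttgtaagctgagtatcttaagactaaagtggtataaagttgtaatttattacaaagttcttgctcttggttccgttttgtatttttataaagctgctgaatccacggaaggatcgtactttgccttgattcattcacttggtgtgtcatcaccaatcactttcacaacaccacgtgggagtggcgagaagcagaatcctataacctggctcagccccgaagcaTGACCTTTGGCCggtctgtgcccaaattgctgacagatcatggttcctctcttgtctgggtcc
Acox2: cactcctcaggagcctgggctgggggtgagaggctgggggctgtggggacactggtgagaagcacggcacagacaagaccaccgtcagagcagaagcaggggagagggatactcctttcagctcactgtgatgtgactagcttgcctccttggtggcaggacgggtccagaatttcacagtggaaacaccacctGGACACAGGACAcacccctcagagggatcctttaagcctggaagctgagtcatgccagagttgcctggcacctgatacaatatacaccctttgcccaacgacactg
The PPAR response element is a direct repeat of AGGTCA spaced by a single base. On both strands the full repeat AGGTCANAGGTCA was in 0 of 36 member windows and in 0.0396% of all 32851 windows, and the looser AGGNCANAGGNCA in 0 and 0.381%. The shorter GGNCANAGGNCA was searched after those 2 gave no match, and its matches include theirs. It was in 3 of 36 member windows (8.33%) and in 0.801% of all windows. The 3 windows belong to 2 members, since 2 overlapping windows of Acox2 held the same match. In Acot4 the match began at position -13 from the start site on the minus strand, and in the printed window of Acox2 at position -56 on the plus strand. The single AGGTCA was in 22.2% of member windows and 16.3% of all windows. The windows of Acaa1b and Acaa1a had 153 identical bases of 300 in a global alignment, against 149 for those of Acot4 and Acot3.

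At 4 weeks 3 of the 36 genes fell in KO livers, none rose and 33 did not pass the test (edgeR quasi-likelihood test, Benjamini-Hochberg adjusted over all genes). Among all 11144 genes tested 5.60% were lower and 5.17% were higher. The log2 fold change was negative for 29 members and positive for 7, with a median of -0.56 against 0.01 over all genes. KO livers lay below WT livers with no overlap for 16 members, where 19.8% of all genes did so, and above them for 2, where 15.8% did. The genes that fell were Acaa1b, Acads and Pex11a.

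**Figure D1:**
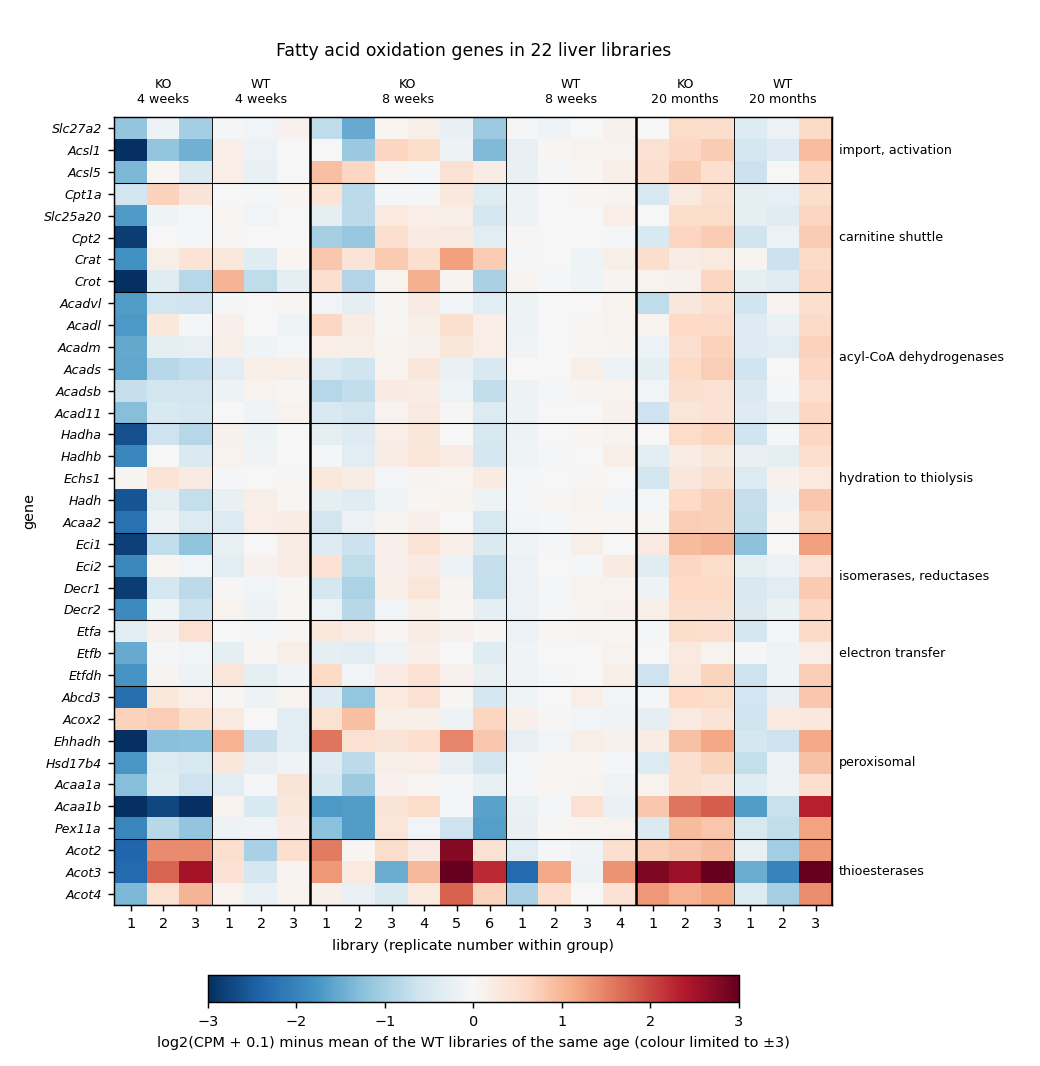
Each row is a gene and each column a library, grouped by age with KO left of WT; colour gives log2(CPM + 0.1) minus the mean of the WT libraries of that age, limited to ±3. KO library 1 at 4 weeks is blue in nearly every row, Acaa1b is blue in all 3 KO libraries at 4 weeks, and WT libraries 1 and 2 at 20 months are mostly blue while WT library 3 is red.

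Acaa1b (chr9:119148023-119157093, GRCm38), a thiolase that releases acetyl-CoA in the last step of peroxisomal beta-oxidation, had 6.55, 148 and 123 CPM in KO livers at 4 weeks, against 1062, 714 and 1253 CPM in WT livers. Every KO library lay below every WT library, and KO library 1 was far below the other KO libraries. Its log2 fold change was -3.41 (SE 0.87, edgeR adjusted p = 0.0424). Acads (chr5:115110299-115119346), the short chain acyl-CoA dehydrogenase, had 29.4, 48.3 and 52.3 CPM in KO livers, against 68.5, 98.0 and 98.5 CPM in WT livers, again with no overlap (log2 fold change -0.99, SE 0.26, edgeR adjusted p = 0.0445). Pex11a (chr7:79735957-79743131), a membrane protein that drives peroxisome division, had 57.8, 127 and 100 CPM in KO livers, against 204, 210 and 269 CPM in WT livers (log2 fold change -1.22, SE 0.29, edgeR adjusted p = 0.0359). Acaa1a, the paralog of Acaa1b, had a log2 fold change of -0.69 (SE 0.29) and did not pass.

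At an unadjusted p under 0.05 there were 12 members, where 29.1% of genes passed. DESeq2 called 6 members, 1 higher and 5 lower, where it called 14.1% of genes, and with no filter on low counts edgeR called 12, where it called 9.64%. The calls at 4 weeks changed when single libraries were left out. KO library 1 was the lowest of the 6 libraries for 34 of 36 members (94.4%), and for 25.9% of the 9149 genes with a mean of at least 5 CPM. It lay at a median of -1.76 log2 units from the mean of the other 5 libraries. Without it, 10 members passed, 7 lower and 3 higher, where 8.44% of all genes were lower and 9.14% higher. The lower ones were Acaa1b (-2.84, SE 0.28), Acsl1, Eci1, Hadha, Acads, Pex11a and Acadvl, with log2 fold changes of -0.54 for Acadvl to -1.27 for Acsl1 among the other 6, and the higher ones were Acot2, Acot3 and Acot4. With all 22 libraries in the fit Acaa1b, Acads, Acsl1 and Ehhadh were lower and Pex11a did not pass, where 5.39% of genes were lower. Without KO library 2 the count was 2, Pex11a and Eci1, and it was 0 without KO library 3 or any single WT library. The share of all genes that passed is not given for these last fits. Fewer calls among all genes therefore cannot be told apart from a change particular to these members. The part of the low albumin in this result was not tested.

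**Figure D2:**
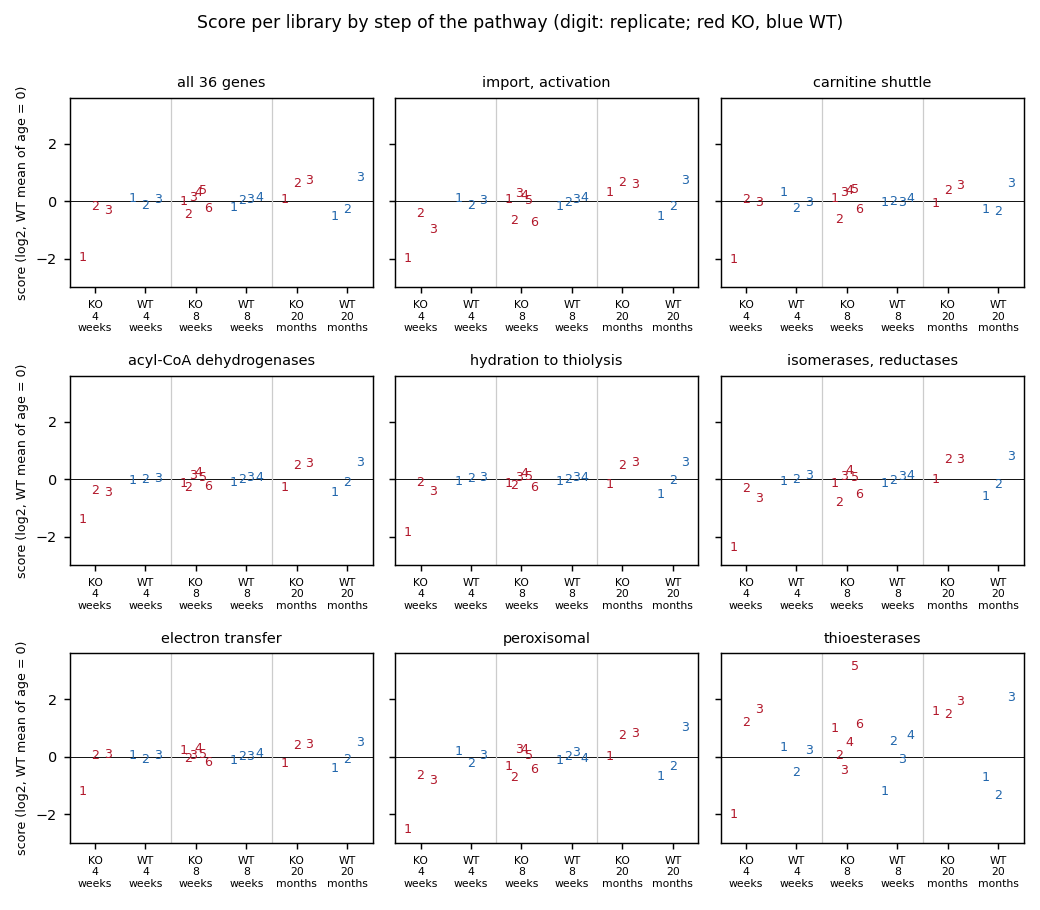
Mean log2 level of the genes of each step in each library, set to 0 at the mean of the WT libraries of the age, with a digit for each library's replicate number. KO library 1 at 4 weeks is lowest in all panels, with -1.96 over all 36 genes, and the thioesterase panel shows KO libraries 2 and 3 above WT at that age.

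Over all 36 genes the score, a mean log2 level relative to WT livers of the age, was -1.96, -0.17 and -0.31 in KO livers at 4 weeks, against 0.09, -0.15 and 0.06 in WT livers. The difference of -0.82 in group means was -0.24 without KO library 1. Peroxisomal genes scored -2.54, -0.64 and -0.82 in KO livers, against 0.19, -0.24 and 0.05 in WT livers, and the KO libraries lay below all WT libraries. Acyl-CoA dehydrogenases scored -1.41, -0.40 and -0.45 in KO livers, against -0.04, 0.00 and 0.03 in WT livers. The carnitine shuttle, by contrast, scored -2.01, 0.07 and -0.04 in KO livers, against 0.29, -0.26 and -0.03 in WT livers, so KO libraries 2 and 3 lay among the WT libraries. Electron transfer genes scored -1.21, 0.06 and 0.08 in KO livers, against 0.03, -0.08 and 0.04 in WT livers, so KO library 1 lay below and KO libraries 2 and 3 just above the WT libraries.

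Among the import and activation genes, Acsl1, the main long chain acyl-CoA synthetase of liver, had 204, 930 and 783 CPM in KO livers at 4 weeks, against 2424, 1894 and 2098 CPM in WT livers. The groups did not overlap, and its log2 fold change of -1.71 (SE 0.49, edgeR adjusted p = 0.0583) missed the threshold. Cpt1a, which makes carnitine esters at the outer membrane and sets the rate of mitochondrial entry, had 513, 1223 and 979 CPM in KO livers, against 753, 724 and 783 CPM in WT livers, with KO libraries on both sides of the WT range. Crot, the peroxisomal carnitine octanoyltransferase, had 103, 690 and 488 CPM in KO livers, against 1812, 525 and 739 CPM in WT livers (log2 fold change -1.23, SE 0.67, edgeR adjusted p = 0.259).

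Eci1, the mitochondrial enoyl-CoA isomerase that handles unsaturated chains, had 26.0, 108 and 78.6 CPM in KO livers, against 155, 183 and 211 CPM in WT livers, without overlap (log2 fold change -1.33, SE 0.43, edgeR adjusted p = 0.0845). Ehhadh had 137, 946 and 974 CPM in KO livers, against 4688, 1399 and 1783 CPM in WT livers. All KO libraries were lower, but WT library 1 was far above the other WT libraries, and the log2 fold change of -1.91 (SE 0.72, edgeR adjusted p = 0.121) did not pass. That WT library also had the most Cyp4a14, a fatty acid omega-hydroxylase under PPAR-alpha, with 14193 CPM against 6093 and 6683 CPM in the other WT libraries. The clock gene Arntl was high in 1 library of each group, with 45.9 CPM in KO library 1 and 40.0 CPM in WT library 1, against 1.61 and 10.9 CPM in the other KO libraries and 5.09 and 3.02 CPM in the other WT libraries. The part of the time of day was not tested.

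**Figure D3:**
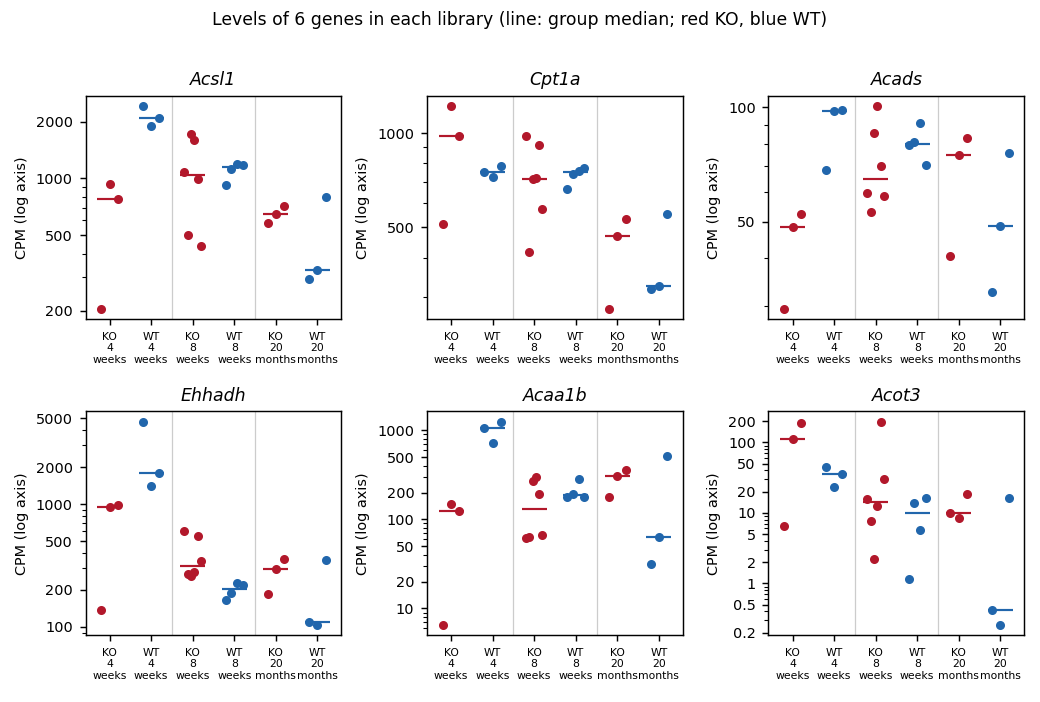
CPM on a log axis in each library for 6 genes, one panel each, with KO (red) left of WT (blue) at each age and a line at the group median. Acaa1b and Acsl1 show KO libraries below WT libraries at 4 weeks, while Acot3 has KO libraries 2 and 3 at 112 and 187 CPM, above the 3 WT libraries.

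The thioesterases, which split acyl-CoA into fatty acid and coenzyme A, lie together within 72542 bases of chromosome 12. Acot3, a peroxisomal member, had 6.55, 112 and 187 CPM in KO livers at 4 weeks, against 44.5, 23.2 and 35.2 CPM in WT livers. KO libraries 2 and 3 were above and library 1 below all WT libraries, and the gene did not pass (log2 fold change 1.60, SE 0.84, edgeR adjusted p = 0.245). Without KO library 1 it passed at 2.17 (SE 0.29, edgeR adjusted p = 0.00255), as did the mitochondrial Acot2 at 1.32 (SE 0.36, edgeR adjusted p = 0.0378) and the peroxisomal Acot4 at 0.81 (SE 0.21, edgeR adjusted p = 0.0311). Acot1, the cytosolic neighbour that shares sequence with Acot2, had 3.86, 47.3 and 101 CPM in KO livers, against 235, 147 and 196 CPM in WT livers, which is the opposite direction (log2 fold change -1.90, SE 0.80, edgeR adjusted p = 0.157). Acox2, the peroxisomal oxidase that acts on branched chains and on bile acid precursors, had 261, 272 and 233 CPM in KO livers, against 199, 164 and 130 CPM in WT livers. All KO libraries were above all WT libraries, yet its log2 fold change of 0.67 (SE 0.22, edgeR adjusted p = 0.086) did not pass.

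Other genes of the pathway passed about as often as all genes at 4 weeks. Of 35 further beta-oxidation genes in the test, 2 were raised, 2 fell and the other 31 did not pass, beside 5.17% of all genes higher and 5.60% lower. Those that rose were the acyl-CoA synthetases Acsl3 (log2 fold change 1.65, SE 0.30, edgeR adjusted p = 0.015) and Acsl4 (1.39, SE 0.27, edgeR adjusted p = 0.0182). The fatty acid transport protein Slc27a4 (log2 fold change -1.23, SE 0.23, edgeR adjusted p = 0.0156) and the peroxisomal thioesterase Acot8 (-1.73, SE 0.37, edgeR adjusted p = 0.0248) fell. Of 25 genes in the PPAR-alpha neighbourhood, 3 rose (the coactivator Ppargc1a, the pyruvate dehydrogenase kinase Pdk4 and the fatty acid receptor Cd36), 3 fell (Cyp4a12a, Fitm1 and Vnn1) and the other 19 did not pass. Cyp4a12a is also counted among the male-biased genes below. Fitm1 averaged 0.123 CPM in KO livers and 2.89 CPM in WT livers, and a count of 0 in these KO libraries allows 0.52 to 0.546 CPM. Ppargc1a averaged 128 CPM in KO livers and 43.2 CPM in WT livers (log2 fold change 1.60, SE 0.20, edgeR adjusted p = 0.00366). With all 22 libraries in the edgeR fit Ppargc1a (adjusted p = 0.154), Pdk4 (0.142) and Cd36 (0.285) did not pass. Cyp4a12a (0.0797) and Fitm1 (0.111) did not pass in that fit either. Ppara itself had 38.5, 120 and 57.2 CPM in KO livers, against 139, 131 and 133 CPM in WT livers.

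Of 8 ketogenesis genes none passed at 4 weeks by edgeR, with 3 at an unadjusted p under 0.05, where 29.1% of all genes had such a p, and of 18 peroxisome biogenesis genes 1 fell, where 5.60% of all genes did. That gene was the peroxisomal catalase Cat, with 660 ± 340 CPM in KO livers and 2075 ± 173 CPM in WT livers (SD, n = 3 each). Of 12 male-biased liver genes 11 fell in KO livers at 4 weeks, with summed levels of 1833 to 2772 CPM in KO livers against 11186 to 18444 CPM in WT livers, where 5.60% of all genes fell. Markers of some other cells moved with the group as well. Erythroid markers summed to 156 to 208 CPM in KO livers against 354 to 492 CPM in WT livers, with 4 of 5 tested lower, and macrophage markers to 346 to 628 against 640 to 765 CPM, with 3 of 9 lower and 1 higher. Endothelial markers summed to 199 to 273 CPM in KO livers against 317 to 380 CPM in WT livers, with 3 of 8 lower. Lymphocyte markers summed to 8.06 to 15.3 against 24.2 to 27.9 CPM, and the 1 marker tested did not pass. Sums of stellate cell markers overlapped, at 350 to 491 CPM in KO livers against 280 to 363 CPM in WT livers, with 2 of 9 lower and 1 higher. Neutrophil sums also overlapped, at 7.90 to 21.1 against 5.77 to 16.9 CPM, and neither of the 2 markers tested passed. The part of these lists in the values of the 36 genes was not tested.

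At 8 weeks none of the 36 genes passed by edgeR, and 5 had an unadjusted p under 0.05 where 0.0275% of 14522 genes passed and 10.4% had such a p. DESeq2 called 1 member, Crat, where it called 0.737% of genes. The median log2 fold change was -0.06 against 0.02 over all genes. It was -0.01 without KO library 6, -0.06 without KO library 1 and 0.02 without KO library 2, and no member passed in these fits. The 6 KO libraries lay above the 4 WT libraries without overlap for 3 members, Crat, Acadm and Ehhadh, where 1.19% of all genes did so, and below them for 0, where 1.06% did.

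Crat, the carnitine acetyltransferase, had 31.6 CPM in the lowest, 41.2 in the median and 56.4 CPM in the highest KO liver at 8 weeks, against 23.4, 24.2, 21.9 and 27.3 CPM in WT livers. All KO libraries lay above all WT libraries (log2 fold change 0.78, SE 0.16, edgeR adjusted p = 0.474; DESeq2 adjusted p = 0.00642). Ehhadh had 259 CPM in the lowest, 314 in the median and 601 CPM in the highest KO liver, against 167, 189, 226 and 219 CPM in WT livers (log2 fold change 0.97, SE 0.27, edgeR adjusted p = 0.474). Acadm, the medium chain acyl-CoA dehydrogenase, had 270 CPM in the lowest, 284 in the median and 317 CPM in the highest KO liver, against 233, 247, 256 and 264 CPM in WT livers. The gap between the groups of Acadm was narrow, at a log2 fold change of 0.22 (SE 0.09).

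KO livers at 8 weeks differed among themselves more than WT livers did for several members. Acaa1b had 61.4, 63.8 and 67.3 CPM in KO libraries 1, 2 and 6 and 268, 299 and 195 CPM in KO libraries 3, 4 and 5, against 176, 195, 281 and 178 CPM in WT livers. Pex11a had 44.3, 32.4 and 33.1 CPM in KO libraries 1, 2 and 6 and 134, 98.7 and 67.8 CPM in KO libraries 3, 4 and 5, against 89.5 to 112 CPM in WT livers. The split was not confined to these genes. KO libraries 1, 2 and 6 were also lower for Hadha (290, 272 and 253 against 406, 451 and 358 CPM) and Decr1 (99.5, 74.3 and 87.6 against 162, 186 and 151 CPM), among others. They were higher for some members, such as Echs1 (210, 197 and 201 against 165, 178 and 177 CPM) and Acox2 (191, 263 and 220 against 158, 159 and 125 CPM). The male-biased major urinary protein gene Mup20 had 5.41, 4.86 and 4.11 CPM in KO libraries 1, 2 and 6, 3381, 3576 and 69.0 CPM in KO libraries 3, 4 and 5, and 1023 to 2269 CPM in WT livers. For Acaa1b KO library 5 lay nearer libraries 3 and 4, and for Pex11a and Mup20 between those and libraries 1, 2 and 6. The score of the male-biased genes was -5.93, -6.00 and -6.39 in KO libraries 1, 2 and 6, and -5.46 in KO library 5. It was 0.64 and 0.83 in KO libraries 3 and 4, against -0.27 to 0.25 in WT livers. Macrophage markers scored 1.08, 1.03 and 0.99 in KO libraries 1, 2 and 6, and 0.84 in KO library 5. They scored -0.24 and -0.28 in KO libraries 3 and 4, against -0.25 to 0.38 in WT livers. The erythroid marker score, on the same scale as the gene scores, was 1.61, 1.76 and 1.74 in KO libraries 1, 2 and 6 and -1.12, 0.05 and 0.15 in KO libraries 3, 4 and 5, against -0.41 to 0.26 in WT livers. The neutrophil marker score was 0.74, 0.68 and 0.53 in KO libraries 1, 2 and 6 and -0.88, -1.08 and -0.32 in KO libraries 3, 4 and 5, against -0.73 to 0.80 in WT livers. Arntl had 44.9 and 43.7 CPM in KO libraries 1 and 2. It had 1.80 to 4.77 CPM in the other KO libraries and 1.39 to 2.57 CPM in WT livers. Dbp had 4.31 and 1.14 CPM in KO libraries 1 and 2. It had 26.4 to 68.1 CPM in the other KO libraries and 38.8 to 64.9 CPM in WT livers. The part of Mup20, these markers or the time of day in the values of the members named here was not tested.

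The score over all 36 genes at 8 weeks was lowest at -0.45 in KO library 2 and highest at 0.36 in KO library 5, against -0.21 to 0.12 in WT livers. KO library 2 was the lowest of the 10 libraries for 15 of 36 members, and for 13.2% of 9392 genes with a mean of at least 5 CPM. Acot3 had 2.18 CPM in the lowest, 14.0 in the median and 197 CPM in the highest KO liver, against 1.17, 13.9, 5.67 and 16.1 CPM in WT livers. Acot2 had 4.27 CPM in the lowest, 5.80 in the median and 28.1 CPM in the highest KO liver, against 3.22, 3.96, 3.78 and 5.78 CPM in WT livers. Acot4 had 14.1 CPM in the lowest, 22.4 in the median and 65.7 CPM in the highest KO liver, against 9.73, 27.3, 19.4 and 26.1 CPM in WT livers. The highest value of all 3 belonged to KO library 5. The log2 fold change of Acot3 was 2.31 (SE 1.21, edgeR adjusted p = 0.497), that of Acot2 1.31 (SE 0.55) and that of Acot4 0.51 (SE 0.45).

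At 20 months none of the 36 genes passed by edgeR or DESeq2 and none had an unadjusted p under 0.05, where 0.00% of 13966 genes passed edgeR, 0.308% passed DESeq2 and 5.53% had an unadjusted p under 0.05. All 36 log2 fold changes were positive, from 0.05 to 1.14, with a median of 0.29 against 0.00 over all genes. No member separated KO from WT livers without overlap, where 4.60% of all genes were lower and 5.64% higher in KO livers that way. The score was 0.06, 0.63 and 0.73 in KO livers, against -0.53, -0.30 and 0.82 in WT livers, so WT library 3 lay above every KO library and the other WT libraries below. The low KO score of 0.06 was that of KO library 1, which stood apart. Without KO library 1 the difference in group means was 0.68 rather than 0.47, and the median log2 fold change was 0.47. Without WT library 1 the difference was 0.21 and the median 0.09. Without WT library 2 they were 0.32 and 0.17.

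WT library 3 was the highest of the 6 libraries for 24 of 36 members (66.7%), and for 17.4% of 9626 genes with a mean of at least 5 CPM. WT library 1 was the lowest for 20 of 36 members (55.6%), and for 31% of those genes. Acaa1b had 178, 309 and 357 CPM in KO livers at 20 months, against 31.8, 64.1 and 517 CPM in WT livers. Acot3 had 9.89, 8.45 and 18.5 CPM in KO livers, against 0.416, 0.258 and 16.2 CPM in WT livers. Ehhadh had 185, 294 and 354 CPM in KO livers, against 110, 104 and 351 CPM in WT livers. Acot2 had 6.72, 7.24 and 7.85 CPM in KO livers, against 3.47, 1.91 and 9.94 CPM in WT livers. Acot4 had 15.4, 13.0 and 14.3 CPM in KO livers, against 4.65, 3.10 and 16.6 CPM in WT livers. Acsl5, a long chain acyl-CoA synthetase, had 430, 512 and 429 CPM in KO livers, against 194, 304 and 475 CPM in WT livers. In these 6 genes WT library 3 lay within or above the range of the KO libraries, and WT libraries 1 and 2 lay below it.

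**Figure D4:**
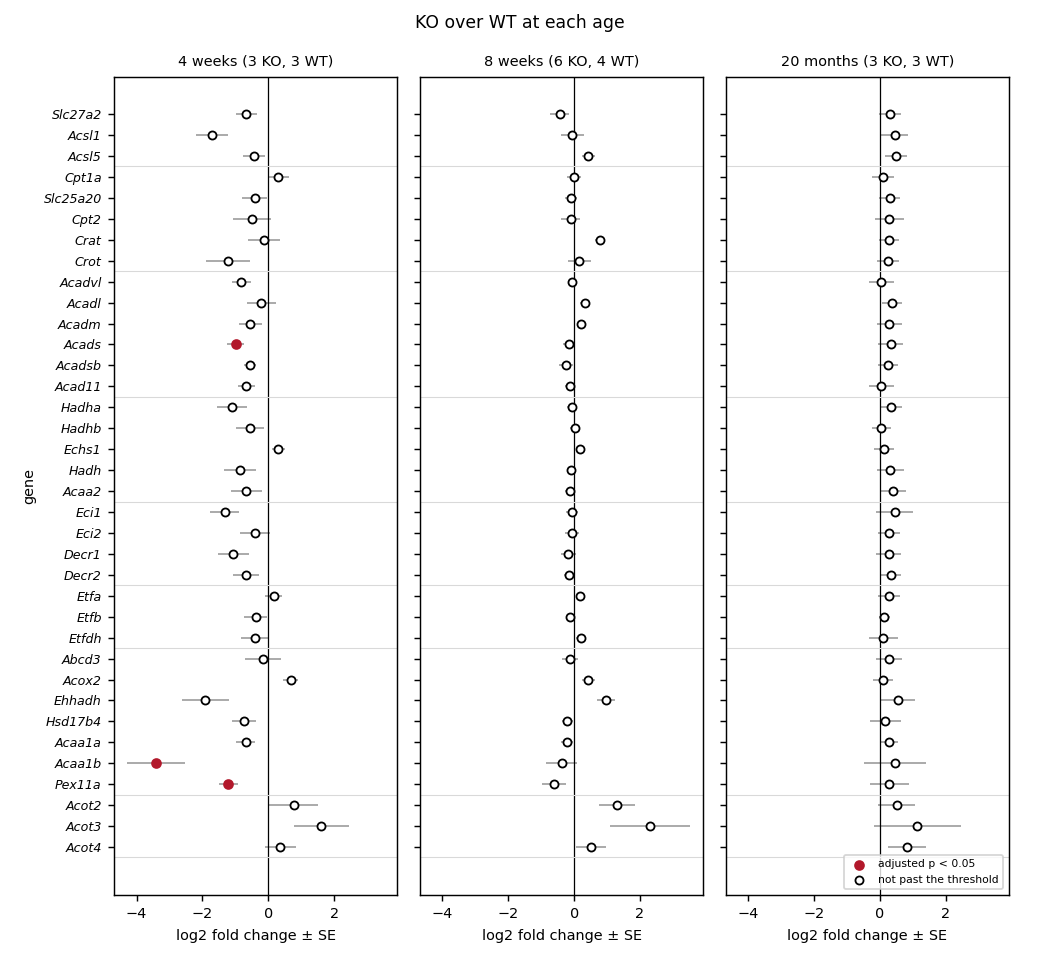
Log2 fold change of KO over WT with its SE (bars) for each gene at 4 weeks, 8 weeks and 20 months; filled points passed an adjusted p of 0.05. The 3 filled points, Acads, Acaa1b and Pex11a, are all at 4 weeks and left of 0, and all 36 points at 20 months lie right of 0.

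Without WT library 3, the median at 20 months was 0.73 and 1 member passed and was higher, where 0.0477% of genes were higher. That member was Acot3 (log2 fold change 5.13, SE 0.53, edgeR adjusted p = 0.0223). The WT libraries then left are those with high Saa1, and in them Acot3 had only 0.416 and 0.258 CPM, with a lowest count of 5. Acute phase genes summed to 11289 to 11471 CPM in KO livers, against a lowest of 10685, a median of 82525 and a highest of 150581 CPM in WT livers. Neutrophil markers summed to 6.97 to 16.6 CPM in KO livers, against 7.11, 420 and 3460 CPM as the lowest, median and highest WT values. In bulk tissue fewer cells of a type and less RNA per cell cannot be told apart, and the part of these markers in the values of the 36 genes was not tested.

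Whether the KO difference changed with age was tested in a joint fit of the 22 libraries. None of the 36 genes passed by edgeR, where 1.62% of 15877 genes did, and 6 had an unadjusted p under 0.05, where 20.0% did. By pairs of ages none passed either. For 8 weeks against 4 weeks 0.328% of genes passed and 14.1% had an unadjusted p under 0.05, with 6 members among them. For 20 months against 4 weeks these were 4.52% and 22.3%, with 12 members at such a p, and for 20 months against 8 weeks 0.00% and 11.3%, with 0 members. DESeq2's likelihood ratio test called 1 member, Ehhadh (adjusted p = 0.0192), where it called 7.61% of genes. Ehhadh had log2 fold changes of -1.91 at 4 weeks, 0.97 at 8 weeks and 0.56 at 20 months. Its KO difference was 2.86 log2 units higher (SE 0.77, edgeR adjusted p = 0.0971) at 8 weeks than at 4 weeks. Without WT library 3 at 20 months 5 members passed the joint test by edgeR, Acaa1b, Acsl1, Ehhadh, Eci1 and Acads, where 6.51% of genes passed. Acaa1b had log2 fold changes of -3.41 at 4 weeks, -0.38 at 8 weeks and 0.46 at 20 months (joint edgeR adjusted p = 0.156 with all libraries).

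The widest movement of the 36 genes was between ages in WT livers. At 8 weeks, against 4 weeks, 29 fell, none rose and 7 did not pass, where 25.7% of 14003 genes fell and 27.5% rose. The median log2 fold change was -1.13 against 0.04 over all genes, and 28 members were lower at 8 weeks with no overlap, where 25.4% of all genes were. These WT libraries also stand in the KO comparisons of their ages. With the spread estimated over all 22 libraries 17 members fell, where 16.7% of 15877 genes did.

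**Figure D5:**
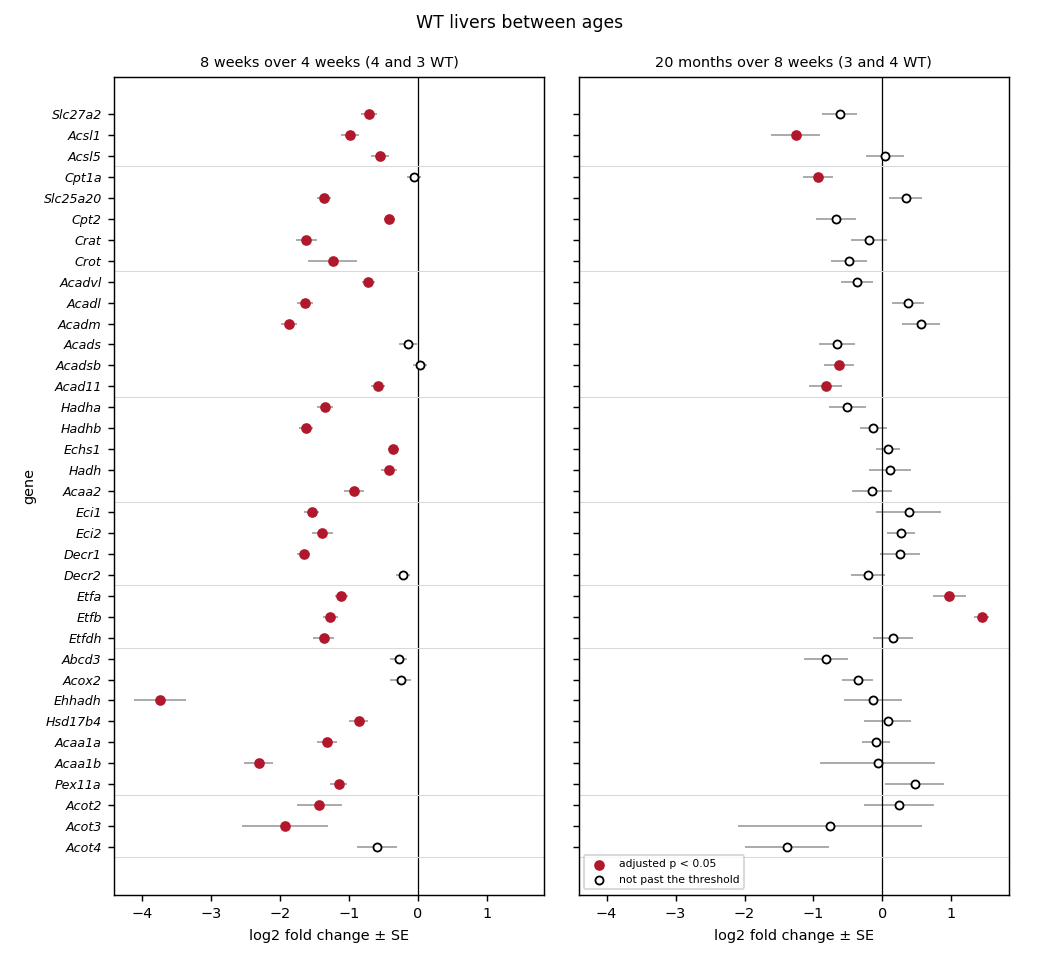
Log2 fold change between ages in WT livers with its SE (bars) for each gene, 8 weeks over 4 weeks on the left and 20 months over 8 weeks on the right; filled points passed an adjusted p of 0.05. On the left 29 filled points lie left of 0, led by Ehhadh at -3.74, and on the right Etfa and Etfb are the 2 filled points right of 0.

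The fall included genes of every step of the pathway in the fit of the WT libraries alone. Ehhadh had 167, 189, 226 and 219 CPM in WT livers at 8 weeks, against 4688, 1399 and 1783 CPM at 4 weeks, with the groups far apart (log2 fold change -3.74, SE 0.38, edgeR adjusted p = 2.62e-05). Acaa1b averaged 207 ± 49.8 CPM at 8 weeks (SD, n = 4) and 1010 ± 273 CPM at 4 weeks (SD, n = 3; log2 fold change -2.31, SE 0.21, edgeR adjusted p = 1.54e-05). Acadm averaged 250 ± 13.1 CPM at 8 weeks and 899 ± 99.7 CPM at 4 weeks, a log2 fold change of -1.87 (SE 0.11). Decr1, the mitochondrial dienoyl-CoA reductase (-1.66), Acadl, the long chain acyl-CoA dehydrogenase (-1.64), Hadhb (-1.62) and Crat (-1.62) fell by similar amounts. All 3 import and activation genes, all 5 hydration to thiolysis genes and all 3 electron transfer genes fell. The 12 genes that did not pass with all 22 libraries in the fit were Slc27a2 (adjusted p = 0.106), Acsl1 (0.107), Acsl5 (0.156), Cpt2, Crot, Acad11, Echs1 (0.154), Hadh (0.385), Hsd17b4, Pex11a, Acot2 (0.132) and Acot3 (0.273), so no import and activation gene and no thioesterase passed in that fit.

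The 7 genes that did not pass from 4 to 8 weeks were Cpt1a, Acads, Acadsb, Decr2, Abcd3, Acox2 and Acot4. Cpt1a had 662, 741, 759 and 776 CPM in WT livers at 8 weeks, against 753, 724 and 783 CPM at 4 weeks, and the ranges overlapped (log2 fold change -0.06, SE 0.10). Cpt2, its partner at the inner membrane, fell by 0.42 on the log2 scale (SE 0.08), and Slc25a20, the carnitine-acylcarnitine carrier between them, fell by 1.36 (SE 0.10). Acadsb, which acts on branched short chains from amino acids, averaged 180 ± 15.2 CPM at 8 weeks (SD, n = 4) and 174 ± 15.6 CPM at 4 weeks (SD, n = 3).

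Genes around the pathway more often fell than rose over the same interval, where 25.7% of all genes fell and 27.5% rose. Of 35 other beta-oxidation genes tested 20 fell and 8 rose, of 25 PPAR-alpha neighbours 16 fell and 2 rose, and of 8 ketogenesis genes 5 fell and 1 rose. Fabp1, the liver fatty acid binding protein, averaged 1626 ± 180 CPM at 8 weeks (SD, n = 4) and 7116 ± 2014 CPM at 4 weeks (SD, n = 3). The genes that rose included Acacb, whose product makes the malonyl-CoA that inhibits Cpt1a, with a log2 fold change of 2.28 (SE 0.26, edgeR adjusted p = 6.49e-05). Ppara rose too, with 272 ± 37.3 CPM at 8 weeks (SD, n = 4) and 135 ± 4.05 CPM at 4 weeks (SD, n = 3; log2 fold change 0.99, SE 0.12, edgeR adjusted p = 6.92e-05). With all 22 libraries in the fit neither Fabp1 (adjusted p = 0.104) nor Ppara (0.0803) passed.

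Between 8 weeks and 20 months in WT livers 2 members rose, 4 fell and 30 did not pass, where 27.7% of 14322 genes rose and 26.8% fell. DESeq2 called 10 members, 2 higher and 8 lower, where it called 56.4% of genes. Reads outside genes were 15.39% to 17.78% in the WT libraries at 8 weeks and 7.0% to 8.52% at 20 months. Ambiguous reads were 6.4% to 7.04% and 3.8% to 4.59%. The labels give no batch, and any difference in preparation or sequencing between these ages cannot be told apart from age. Etfb, the beta subunit of the electron transfer flavoprotein, had 62.9, 59.8 and 75.2 CPM at 20 months, against 21.7, 23.7, 23.2 and 25.4 CPM at 8 weeks (log2 fold change 1.44, SE 0.11, edgeR adjusted p = 4.66e-05). Etfa had 358, 506 and 768 CPM at 20 months, against 237, 276, 285 and 278 CPM at 8 weeks (log2 fold change 0.97, SE 0.24, edgeR adjusted p = 0.0108). Both rose without overlap, whereas Etfdh, the dehydrogenase that passes their electrons to ubiquinone, had 164, 230 and 416 CPM at 20 months, against 218 to 263 CPM at 8 weeks, and did not pass. Markers of other cells moved over the same interval. All 4 neutrophil markers tested were higher at 20 months (median log2 fold change 8.55). The neutrophil list summed to 7.11, 420 and 3460 CPM as lowest, median and highest WT values at 20 months, against 1.34 to 6.89 CPM at 8 weeks. The lowest value thus lay near the 8-week range. Also higher were 5 of 12 acute phase genes, 4 of 9 macrophage markers and 4 of 8 lymphocyte markers. Lower were 5 of 9 stellate cell markers, 5 of 8 endothelial markers, 8 of 12 male-biased genes and 8 of 15 circadian genes. The part of these lists in the values of the 36 genes at these ages was not tested. Counts of Etfb carry the limit of its overlap with Gm45233.

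The 4 genes that fell were Acsl1, Cpt1a, Acadsb and Acad11, an acyl-CoA dehydrogenase of long chains. Acsl1 had 293, 327 and 802 CPM in WT livers at 20 months, against 919, 1127, 1188 and 1175 CPM at 8 weeks (log2 fold change -1.26, SE 0.36, edgeR adjusted p = 0.0197). Cpt1a had 317, 324 and 552 CPM at 20 months, against 662 to 776 CPM at 8 weeks (log2 fold change -0.93, SE 0.22, edgeR adjusted p = 0.00926). In both genes WT library 3 was nearest to the 8-week level. Without WT library 3, 2 members rose and 21 fell, where 29.7% of genes rose and 28.6% fell, and Etfa and Etfb were again the 2 that rose. Without WT library 1 at 20 months 5 passed, Acadm among them and higher (log2 fold change 0.75, edgeR adjusted p = 0.0388), where 58.4% of genes passed. Etfa, Etfb and Cpt1a were the 3 that passed without WT library 2 at 20 months, where 46.6% of genes passed. They were also the 3 that passed without WT library 2 or without WT library 3 at 8 weeks, where 44.8% and 44.7% of genes passed. Ppara fell, with 14.9 to 49.9 CPM at 20 months and 218 to 302 CPM at 8 weeks (log2 fold change -3.23, SE 0.41, edgeR adjusted p = 4.11e-04).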

How the data were processed

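The submitters' processing notes name HISAT2 2.0.4, HTSeq 0.6.1p1 and the build GRCm38. The deposited values are raw counts per Ensembl gene, and annotation release and strand setting are not given in the sources used here. Symbols came from GENCODE M21 (47310 of 47729 genes); Mut and Trf stand for Mmut and Tf. Reads outside genes (6.13% to 17.78%) and ambiguous reads (3.8% to 7.3%) stayed out of library sizes. A count of 0 allows 0.112 to 0.546 CPM per library, for counting error only. In R 4.3.3, edgeR 4.0.16 kept genes by filterByExpr, scaled by TMM and ran 2-sided quasi-likelihood F-tests per comparison, and adjusted p-values by Benjamini-Hochberg across every gene in the fit, calling those under 0.05. DESeq2 1.42.0, other scalings and filters, a replicate block and leaving out each library were alternatives. The script was tested on simulated counts. A score is the mean log2 CPM of a list (prior count 2). The members and lists were chosen with earlier results of these data known. The genes given library by library in the KO comparisons are those past the threshold and the 6 largest changes. Some others (Cpt1a, Acadm, Acox2, Acot1 and, at 8 weeks, Acaa1b, Hadha, Decr1 and Echs1) were chosen after their values were seen. No pair of libraries of a group agreed within sampling noise (smallest chi-square per degree of freedom 7.65).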

Additional observations from a re-analysis of the deposited data

How the results depend on the processing

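Count of the 36 genes that passed, by setting. For KO against WT at 4 weeks the 3 calls became 6 by DESeq2 and 12 with no filter on low counts, and 0 to 10 when each library was left out in turn. At 8 weeks the count of 0 became 1 by DESeq2. At 20 months it was 0 to 1 when each library was left out; the median log2 fold change of 0.29 then ranged from 0.09 to 0.73 and the difference in score of 0.47 from 0.21 to 0.88. For WT livers, the 29 calls between 8 and 4 weeks became 17 with all 22 libraries in the fit, and the 6 calls between 20 months and 8 weeks became 10 by DESeq2 and 3 to 23 when each library was left out. The joint test of ages gave 1 by DESeq2 and 0 to 5 when each library was left out. Acaa1b at 20 months had log2 fold changes from -0.05 without WT replicate 1 to 2.56 without WT replicate 3. For some of these settings the share of all genes that passed is not given, and such counts carry that limit. Causes were not tested beyond the libraries named.

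The labels do not say whether equal replicate numbers pair the libraries. Deviations of KO and WT libraries of equal number correlated between -0.07 and 0.01 at 4 weeks and between -0.33 and 0.07 at 8 weeks. At 20 months they correlated between 0.03 and 0.46, with 2 of 3 KO libraries best with their own number. With so few libraries in a group, whose deviations depend on each other, this check cannot exclude pairing. With the replicate number as a block, 1 member passed at 4 weeks, and Acot4 at 8 weeks had a log2 fold change of -0.06. The block gave 30 calls between 8 and 4 weeks and 8 between 20 months and 8 weeks in WT livers. The share of all genes that passed with the block is not given, so these counts cannot be set against all genes. Without the block 27.5% of genes rose and 25.7% fell from 4 to 8 weeks. From 8 weeks to 20 months 27.7% rose and 26.8% fell.

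Depth at 4 weeks was lower than at the other ages, so a gene at a given CPM carries more counting error there. The lowest count of Acot3 was nevertheless at 20 months, with 5 in WT livers, against a lowest of 132 in WT livers at 4 weeks.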
